A study of Mus musculus with 2 samples.

Results

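The 35 genes described here encode enzymes that make cholesterol and fatty acids, the sterol regulatory element-binding proteins (SREBPs) that switch these enzymes on, and the liver X receptors (LXRs) with genes that export cholesterol. They were chosen by name from general knowledge of the pathways. A gene was taken as measured when a non-control probe of the array carried a RefSeq transcript identifier of it, and all 35 genes were found, through 49 probes, among 20653 named genes on the arrays. Genes with several probes were read from the probe that was brightest on average over the arrays (mean log2 signal). RNA came from monocytic myeloid-derived suppressor cells (M-MDSCs), immature monocyte-like cells that restrain T cells, isolated with a magnetic bead kit from 4T1 tumours. 4T1 is a mouse mammary carcinoma line. Female BABL/c mice (the labels' spelling of the BALB/c strain) were each injected under the skin with 1000000 4T1 cells and then fed for 16 days. The normal-salt diet (NSD) group had chow with 0.4% NaCl and tap water, and the high-salt diet (HSD) group had chow with 4% NaCl and water with 1% NaCl. All mice of both groups carried tumours, so the arrays hold no tumour-free group. M-MDSCs of a diet group were mixed in equal numbers before RNA was extracted. The mice were young adults, by the study's methods. The comparison asks which transcripts of these cells differed between the diets. Each diet has 1 array (single dye, Cy3), so each probe has a single value for the pooled mice of a diet, and differences between the diets could not be tested. The fold changes below therefore have no replicate check.

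Cells make cholesterol from acetyl-CoA through the mevalonate pathway and then through a series of sterol intermediates. When sterols are scarce in the membrane of the endoplasmic reticulum, Scap escorts SREBPs to the Golgi, where they are cleaved, and the released fragment enters the nucleus and raises transcription of nearly every enzyme of the pathway. When sterols are plentiful, Insig proteins hold Scap back, and oxidised sterols or late intermediates activate LXRs, which raise transcription of the exporters Abca1 and Abcg1 and of Mylip, a ubiquitin ligase that removes lipoprotein receptors. LXRs also raise transcription of Srebf1 and, with it, of fatty acid synthesis genes. In macrophages, the LXR branch is known for disposing of cholesterol taken up with dying cells and lipoproteins.

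Short stretches of promoter are shown here for 4 of the genes. They are given 5′ to 3′ on the strand of the gene, taken from RefSeq for mouse assembly GRCm38.p6, from a table of the 250 bases before and 50 after start sites that held 28 of the 35 genes. Genes without an entry were Abcg1, Stard4, Sqle, Fdft1, Scd1, Fdps and Scd2. Capitals mark the motif found. Hmgcs1, an early enzyme of the mevalonate pathway, was the single gene of the 28 with the letters TCACNCCAC, a form of the sterol response element bound by SREBPs, on either strand. The other stretches carry the repeat bound by LXRs, searched on both strands as GGTTA and GGTCA with any 5 bases between them, and it reads on the strand opposite to each of these genes. Abca1, Srebf1 and Fasn were the 3 of the 28 genes that held it.
Hmgcs1, chr13:119690189-119690247, plus strand: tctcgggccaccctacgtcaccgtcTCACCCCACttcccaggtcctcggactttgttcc
Abca1, chr4:53159923-53159987, minus strand: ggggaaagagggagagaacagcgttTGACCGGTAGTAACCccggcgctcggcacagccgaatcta
Srebf1, chr11:60210614-60210678, minus strand: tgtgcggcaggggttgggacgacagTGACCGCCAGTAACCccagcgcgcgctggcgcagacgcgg
Fasn, chr11:120824733-120824797, minus strand: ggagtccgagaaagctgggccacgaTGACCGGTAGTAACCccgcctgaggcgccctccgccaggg
The motif ended 128 bases before the start site in Hmgcs1, 52 in Abca1, 167 in Srebf1 and 210 in Fasn. The sterol response element letters stood in 1.24% and the LXR letters in 0.0487% of all 32851 promoters of the table. Counted by gene, the shares were 1.44% and 0.0481% of its 27025 genes. The letters ATTGG, an inverted CCAAT box, were found in 21 of the 28 genes and in 41.1% of those 27025 genes. The palindromic E-box CACGTG was found in 6 of the 28 genes and in 8.09% of the 27025. These matches are descriptions of sequence and were not tested for binding. The letters were chosen after promoters of these genes had been looked at, so that their presence there is no result. None of the 4 genes with a printed stretch was 1.5-fold different between the diets, as their values below show.

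Processed signals are given in intensity units, after background correction by the scanner software and before any scaling between arrays. For a log2 fold change, the 75th percentile of each array (252 units for NSD and 233 for HSD) was subtracted on the log2 scale, and the NSD value was then taken from the HSD value. Its error is the SD expected from spot-to-spot noise within an array, from probes of like signal that were printed in several spots. This error covers the spread between spots within an array. It covers neither other technical differences between the arrays nor the variation between mice. It was between 0.10 and 0.34 for the 35 genes, each read from a single spot per array. No spot of either array was saturated. Signals well above background were found for 34 of the 35 genes with either diet, and for Dhcr7 on the HSD array only.

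**Figure D1:**
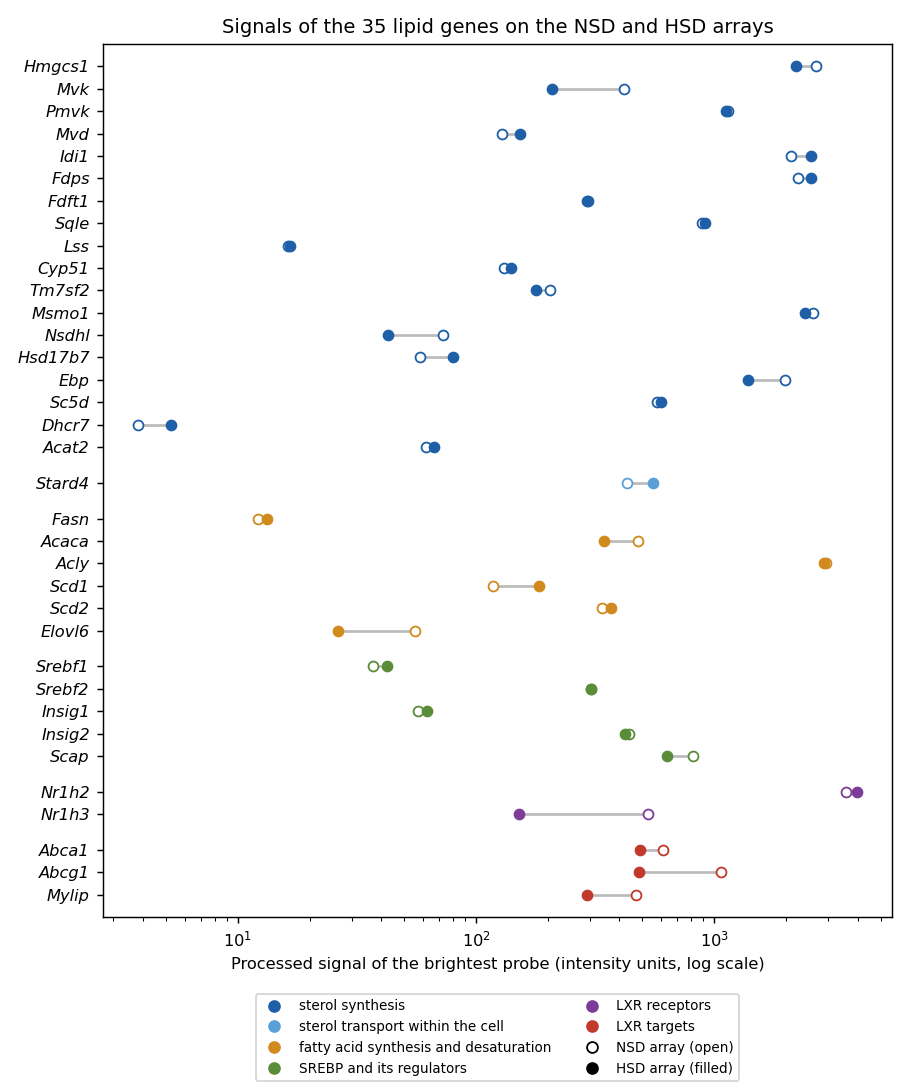
Processed signal of each of the 35 genes on the NSD array (open points) and the HSD array (filled points), on a log axis in intensity units before scaling between the arrays, with 1 array per diet and colours for the roles of the genes. Points of most sterol synthesis genes lie close together, and the widest gap is that of Nr1h3, at 525 (NSD) and 152 (HSD) units.

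Most sterol synthesis enzymes stayed within 1.5-fold between the diets, while Nr1h3, which encodes the LXR isoform of macrophages and liver, and Abcg1, a cholesterol exporter, were lower in the HSD group. Nr1h3 was 3.20-fold lower and Abcg1 2.04-fold lower. In pooled bulk RNA, fewer cells of a type and less RNA per cell cannot be told apart. Of the 35 genes, 1 was at least 1.5-fold higher in the HSD group, namely Scd1, and 5 were at least 1.5-fold lower, namely Nr1h3, Abcg1, Elovl6, Mvk and Nsdhl. Of the 16312 genes well above background on at least 1 array, 9.86% passed 1.5-fold upwards, 10.3% passed it downwards and 20.2% passed it in either direction. The 35 genes had a median log2 fold change of 0.11, against 0.045 over all genes, and the median absolute value was 0.25, against 0.28 over all genes.

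The first steps of the mevalonate pathway had the following values. Acat2, which joins acetyl-CoA units in the cytosol, had signals of 61.7 (NSD) and 66.6 (HSD) units, a log2 fold change of 0.22 ± 0.17 (SD of spot noise). Hmgcs1, which condenses these units to HMG-CoA, had 2669 and 2208 units, a log2 fold change of −0.16 ± 0.13. Mvk, the kinase that phosphorylates mevalonate, had 418 and 208 units and was 1.85-fold lower in the HSD group (log2 fold change −0.89 ± 0.12). Mvk was the lowest value among the sterol synthesis genes. Its other probe was also lower in the HSD group, with 82.8 and 60.0 units and a log2 fold change of −0.35 ± 0.16, short of 1.5-fold. The next kinase, Pmvk, had 1146 and 1120 units (log2 fold change 0.082 ± 0.10), and Mvd, which decarboxylates its product, had 129 and 153 units (log2 fold change 0.36 ± 0.13). Neighbouring enzymes of the same pathway thus had values on both sides of 0.

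The enzymes that build squalene from isoprenoid units were close to equal or slightly higher in the HSD group. Idi1, which interconverts the isoprenoid units, had 2097 and 2541 units on the NSD and HSD arrays, a log2 fold change of 0.39 ± 0.13. Fdps, which makes farnesyl diphosphate, had 2245 and 2544 units (log2 fold change 0.29 ± 0.13). Fdft1, the squalene synthase, had 296 and 293 units (log2 fold change 0.10 ± 0.12), and its dimmer probe a value of −0.092 ± 0.34. Sqle, the epoxidase that commits squalene to sterols, had 888 and 914 units (log2 fold change 0.16 ± 0.10). None of these genes reached 1.5-fold.

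From lanosterol to cholesterol, most values were near 0 as well. Lss, which closes the rings to lanosterol, had 16.2 and 16.6 units (log2 fold change 0.15 ± 0.32), and Cyp51, which takes off the first methyl group, had 131 and 139.8 units (log2 fold change 0.21 ± 0.13). Msmo1, a methyl oxidase of a later step, had 2600.2 and 2403 units, a log2 fold change of 0.00035 ± 0.13. Tm7sf2, a sterol reductase, had a log2 fold change of −0.081 ± 0.13, and its other probe one of 0.26 ± 0.27. Sc5d, a desaturase, had a value of 0.16 ± 0.11. Nsdhl, which removes a carboxyl group from the methyl sterols, had 72.9 and 42.8 units and was 1.57-fold lower in the HSD group (log2 fold change −0.65 ± 0.19). Its other probe, at 20.1 and 16.3 units, had a log2 fold change of −0.19 ± 0.30, within the noise of a spot. Hsd17b7, the ketoreductase that acts after Nsdhl, had 58.3 and 80.1 units (log2 fold change 0.57 ± 0.17), and its other probe a value of 0.36. Nsdhl and Hsd17b7, which act in sequence on the same intermediates, thus had values of opposite sign. Ebp, the isomerase of the following step, had 1982 and 1393 units (log2 fold change −0.39 ± 0.13). Dhcr7, the reductase of the last step, was dim. It had 5.26 units on the HSD array and was not well above background on the NSD array, so only a lower bound can be given, at least 1.23-fold higher in the HSD group. On the log2 scale this bound was 0.30, within the spot noise of 0.32. Dhcr7 entered the counts only through the HSD array.

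Over the 18 sterol synthesis genes, 13 values were above 0 and 5 below, with a median log2 fold change of 0.15 and a range from −0.89 to 0.57. Over all genes, 54.2% of the values were above 0. Under the other settings tried, between 12 and 14 of the 18 were above 0, beside 47.6% to 62.3% of all genes. None passed 1.5-fold upwards and 2 passed it downwards, against the 9.86% and 10.3% of all genes given above. The median absolute log2 fold change of these genes was 0.22, below the 0.28 of all genes. Stard4, which carries cholesterol between membranes and is itself a known SREBP target, had 432 and 555 units (log2 fold change 0.48 ± 0.11). Its other probe had 86.7 and 139.8 units and a value of 0.80 ± 0.13, past 1.5-fold, so that the median over the probes placed Stard4 past the threshold as well.

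**Figure D2:**
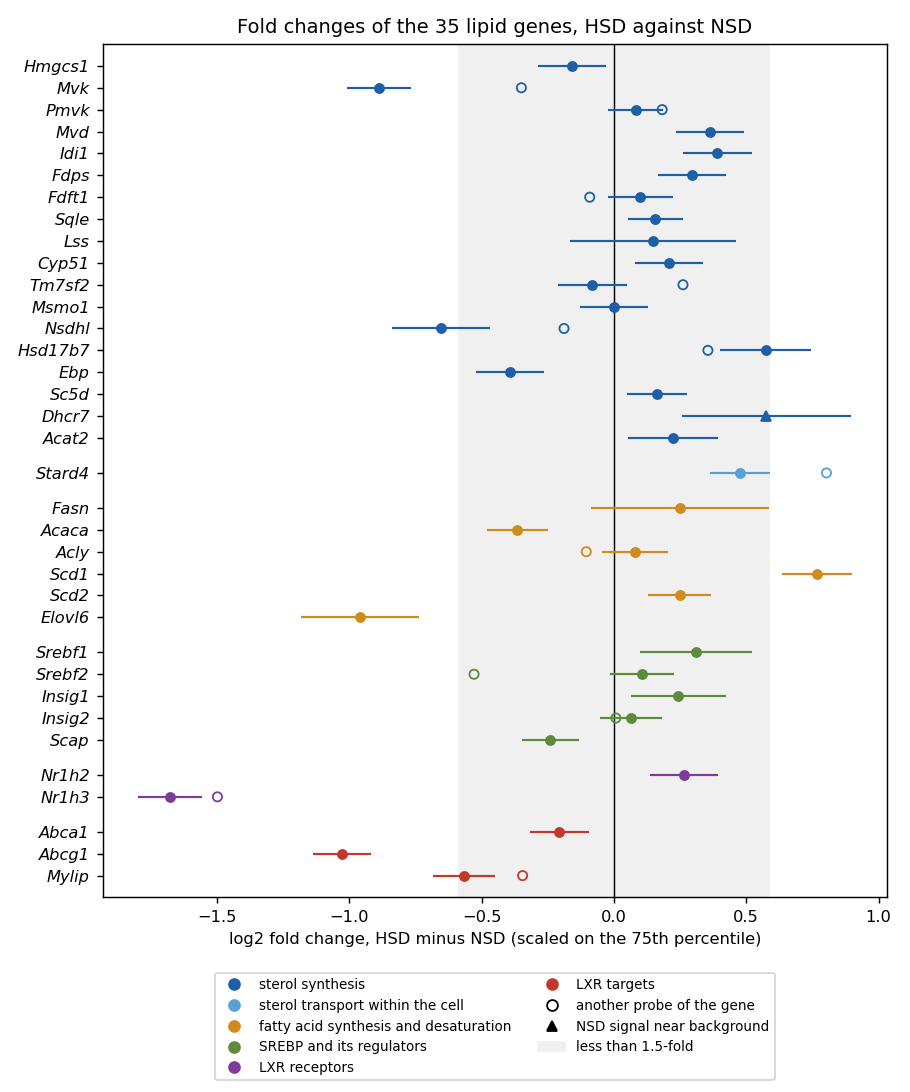
Log2 fold change of each of the 35 genes, HSD minus NSD. Filled symbols are the probe used and open circles other probes of the gene that were above background, the triangle is the measured value of Dhcr7, whose NSD signal was near background, bars are 1 SD of spot noise and not of mice, and the grey band holds changes of less than 1.5-fold. Nr1h3 and Abcg1 lie farthest to the left, at −1.68 and −1.03, and both probes of Nr1h3 are outside the band.

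Fatty acid synthesis genes went in both directions. Acly, which supplies cytosolic acetyl-CoA from citrate, had 2948 and 2878 units on the NSD and HSD arrays (log2 fold change 0.080 ± 0.13). Its dimmer probe had a value of −0.10 ± 0.28. Acaca, the carboxylase that makes malonyl-CoA, had 480.1 and 344 units (log2 fold change −0.37 ± 0.11), and its other probes, 2 in number, were dim with either diet. Fasn, the fatty acid synthase, was dim at 12.1 and 13.3 units (log2 fold change 0.25 ± 0.34). Elovl6, which lengthens palmitate to stearate, had 55.3 and 26.3 units and was 1.94-fold lower in the HSD group (log2 fold change −0.96 ± 0.22). Scd1, the desaturase that turns stearate into oleate, had 117 and 184 units and was 1.70-fold higher (log2 fold change 0.77 ± 0.13). Scd2, the related desaturase, had 337 and 369 units (log2 fold change 0.25 ± 0.12). Elovl6 and Scd1, which act in sequence, thus moved in opposite directions. limma's normexp correction was run on median spot and background intensities in place of the processed signals, with an offset of 50. It gave log2 fold changes of −0.26 for Elovl6 and 0.54 for Scd1, and neither reached 1.5-fold. The offset adds 50 units to every spot, which pulls the fold changes of genes with low signals towards 0. Falling short of 1.5-fold with it is therefore a weak check for such genes, among them Elovl6.

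The genes of the SREBP machinery stayed within 1.5-fold. Srebf1 had 36.8 and 42.1 units (log2 fold change 0.31 ± 0.21). Srebf2, which encodes the SREBP that mainly drives cholesterol synthesis, had 305 and 304 units by its brighter probe (log2 fold change 0.11 ± 0.12). The other Srebf2 probe had 197 and 126 units and a log2 fold change of −0.53 ± 0.13, so the probes disagreed in sign and the median over them was −0.21. Scap had 812 and 635 units (log2 fold change −0.24 ± 0.11). Insig1, a known SREBP target that restrains Scap, had 57.1 and 62.5 units (log2 fold change 0.24 ± 0.18), and Insig2, which has the same role, had 438 and 423 units (log2 fold change 0.065 ± 0.12). Transcript levels do not measure the cleavage of SREBPs.

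Of the LXR receptors, Nr1h3 differed more and Nr1h2 less than the median absolute log2 fold change of 0.28 over all genes. Nr1h3 had 525 (NSD) and 152 (HSD) units, a log2 fold change of −1.68 ± 0.12. Its other probe had 110.5 and 36.1 units and a log2 fold change of −1.50 ± 0.18. Either probe was above background whichever the diet, and both were lower in the HSD group. Of all genes with a usable probe, 1.42% had a value as low as that of Nr1h3 or lower. Nr1h2, which encodes the LXR isoform found in most tissues, had 3565 and 3960 units, a log2 fold change of 0.27 ± 0.13. The receptors thus had values of opposite sign, and only Nr1h3 was past 1.5-fold.

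All 3 genes listed as LXR targets had values below 0, as had 7463 of all 16312 genes. The 3 values were also below 0 under each of 10 other settings, which process the same arrays and in part reuse the same values. Of the 3 genes, 1 was at least 1.5-fold lower, namely Abcg1, beside 10.3% of all genes. Abcg1, which exports cholesterol to high-density lipoprotein, had 1067 (NSD) and 483 (HSD) units (log2 fold change −1.03 ± 0.11). A value this low or lower was found for 3.97% of all genes. Mylip had 471 and 294 units and was 1.48-fold lower, just short of the threshold (log2 fold change −0.57 ± 0.12), and its other probe, at 15.2 and 11.1 units, had −0.35 ± 0.33. Mylip was past 1.5-fold with cyclic loess between the arrays, with the 75th percentile of probes above background on both arrays, and in the authors' deposited values. Abca1, which exports cholesterol to lipid-free apolipoprotein, had 611 and 489 units (log2 fold change −0.21 ± 0.11). The median of the 3 genes was −0.57, and it lay between −0.62 and −0.46 under the other settings. The 26 SREBP targets, which are the sterol and fatty acid synthesis genes with Stard4 and Insig1, had a median of 0.16, between 0.093 and 0.17 under the other settings. Of these 26 genes, 1 passed 1.5-fold upwards and 3 downwards, beside 9.86% and 10.3% of all genes. These medians are descriptions of 1 pair of arrays, and their difference was not tested.

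**Figure D3:**
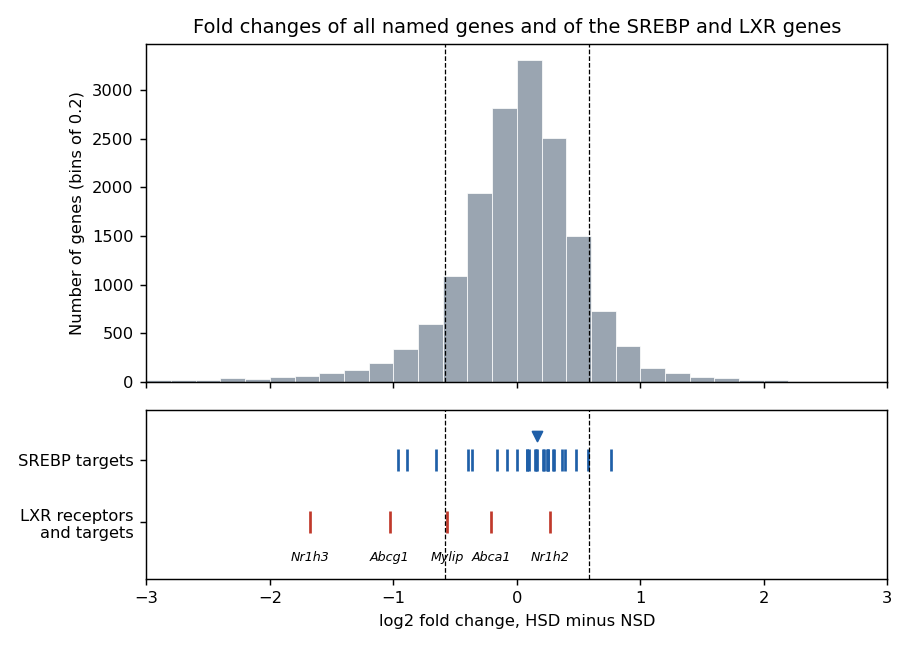
Upper panel, histogram of the log2 fold change (HSD minus NSD) of the genes with a usable probe, in bins of 0.2, cut off at −3 and 3, which leaves 69 genes out of view. Lower panel, the 26 SREBP targets with their median (triangle, 0.16) and the 5 LXR receptors and targets, with dashed lines at 1.5-fold. The SREBP targets lie around the peak of all genes, and 4 of the 5 LXR genes lie to the left of 0.

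Srebf1 and the fatty acid synthesis genes, which LXRs also raise, had values on both sides of 0, from −0.96 for Elovl6 to 0.77 for Scd1. Among the other genes listed as LXR targets or partners, 10 of 11 had a usable probe. Past 1.5-fold was 1 gene in each direction, beside 9.86% (upwards) and 10.3% (downwards) of all genes. Of the 10 values, 4 were above 0 and 6 below, with a median of −0.13. Rxra, a partner of LXRs, had a value of −0.13 ± 0.20, and its other probe, at 34.3 and 14.4 units, −1.14 ± 0.28. Pltp, a phospholipid transfer protein and known LXR target, had 124 and 48.7 units and was 2.36-fold lower (log2 fold change −1.24 ± 0.16). Ncor1, a corepressor that LXRs bind, had 949 and 1546 units and was 1.76-fold higher (log2 fold change 0.82 ± 0.12). The other probes of Ncor1 had values of 0.31 and 0.77. Smpdl3a, a phosphodiesterase and the brightest of this list, had a log2 fold change of 0.053 ± 0.17.

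Further genes of lipid handling were taken from lists written from general knowledge. Of 13 genes of sterol esterification, storage and lysosomal export, 12 had a usable probe, 2 passed 1.5-fold upwards and 3 downwards. Over all genes, 9.86% passed it upwards and 10.3% downwards. Nceh1, an esterase that frees cholesterol from its stored esters in macrophages, had 1301 and 232 units on the NSD and HSD arrays and was 5.18-fold lower (log2 fold change −2.37 ± 0.12). Npc2, which hands cholesterol out of the lysosome, had 6512 and 3670.4 units and was 1.64-fold lower (log2 fold change −0.71 ± 0.14). Cyp27a1, a sterol hydroxylase, was 1.59-fold lower at the low signals of 14.2 and 8.28 units. The higher genes were Osbp, an oxysterol-binding protein, with 231 and 367 units (log2 fold change 0.78 ± 0.12), and Ch25h, which makes an oxysterol, with 16.1 and 24.1 units (log2 fold change 0.69 ± 0.29). The other probe of Osbp had a value of 0.16. Plin2, which coats lipid droplets and was the brightest of this list, had 10124 and 11850 units (log2 fold change 0.34 ± 0.19). The list thus held its widest gap at Nceh1 and had values in both directions. With the normexp correction, the log2 fold changes of Ch25h, Osbp and Cyp27a1 were 0.26, 0.51 and −0.042, short of 1.5-fold.

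Of 18 other genes of sterol and fatty acid synthesis, 17 had a usable probe, and their median log2 fold change was 0.030. Acsl3, which activates fatty acids, was 1.64-fold higher, and Acat1, a mitochondrial thiolase, was 1.66-fold lower. With the normexp correction their log2 fold changes were 0.42 and −0.40, short of 1.5-fold. Mid1ip1, which activates acetyl-CoA carboxylase and was the brightest of this list, had a value of 0.26 ± 0.15. Of 11 other genes of SREBP processing and sterol sensing, with a median of −0.048, only Rnf145, a ubiquitin ligase that responds to sterols, was past 1.5-fold, at 1615 and 2431 units (log2 fold change 0.70 ± 0.13). Over the 50 measured genes of these further lists, 5 passed 1.5-fold upwards and 5 downwards, shares near the 9.86% and 10.3% of all genes.

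Most marker genes of macrophages were lower in the HSD group, as were Nr1h3 and Abcg1. Of 9 listed macrophage markers, 7 were well above background on at least 1 array. Of these, 6 had values below 0 and 5 were at least 1.5-fold lower, with a median log2 fold change of −1.70. Of all genes, 10.3% were at least 1.5-fold lower. Mrc1, the mannose receptor, had 134 (NSD) and 5.49 (HSD) units (log2 fold change −4.50 ± 0.26), and Mertk, a receptor for dying cells, had 95.9 and 15.4 units (log2 fold change −2.52 ± 0.25). Msr1, a scavenger receptor for modified lipoprotein, had 742 and 210.4 units (log2 fold change −1.70 ± 0.12). C1qc was 8.65-fold lower, and C1qa, not well above background on the HSD array, at least 2.56-fold lower. Adgre1, which encodes F4/80 and was the brightest, had 6723 and 4252 units (log2 fold change −0.55 ± 0.15), and C1qb had a value of 0.33 ± 0.19. Cd163 was dim (not well above background) with either diet. Under the other settings the macrophage median was between −2.11 and −0.74, and −0.74 was the value with the normexp correction. With that correction Mrc1, Mertk and C1qc were at −1.56, −1.01 and −0.74, and C1qa at −0.074, short of 1.5-fold. The summed signal of the macrophage list, before scaling between arrays, was 7812 (NSD) and 4555 (HSD) units. Most of it came from Adgre1 alone, at 6723 and 4252 units. The part of these markers in the values of Nr1h3, Abcg1, Pltp and Nceh1 was not tested.

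Markers of other cell types were mixed. Of 9 monocyte markers, 8 had a usable probe, with a median of −0.18. Fcgr1, an Fc receptor of monocytes and macrophages, was 12.9-fold lower (log2 fold change −3.68, and −2.10 with the normexp correction), while Ly6c1, a surface protein of monocytes, had 51811 and 48478 units (log2 fold change 0.018 ± 0.095) and was the brightest. All 10 measured neutrophil markers were well above background on both arrays. Camp, a granule protein of neutrophils and the brightest of them, had 61817 and 59919.5 units (log2 fold change 0.069 ± 0.096), and the median of the list was 0.074. RNA of granulocytic genes was thus measured on both arrays of cells labelled as monocytic. Before scaling, the signals of the 10 neutrophil markers summed to 343619 (NSD) and 334056 (HSD) units. Those of the 8 monocyte markers summed to 118570 and 108099 units. Ly6g, Ly6c2 and Cd68 had no matched probe and were not analysed here. Fabp4, a fatty acid-binding protein from the adipocyte list that macrophages also express, had 543 and 69.6 units and was 7.21-fold lower. Adipoq, which encodes adiponectin, was dim on the NSD array (not well above background) and had 29.4 units on the HSD array, a bound of at least 6.91-fold higher, but with the normexp correction its log2 fold change was 0.52, short of 1.5-fold. Lists of dendritic, T and NK, B, 4T1 carcinoma, fibroblast, endothelial and erythroid cells had medians between −0.55 and 0.40. Of their genes, Il7r, Cd3e, Batf3 and Col3a1 had log2 fold changes of −1.80, −1.09, −1.12 and −1.09, and Cd209a, not well above background on the HSD array, had a bound of −1.58 (log2), so that it was at least that much lower. With the normexp correction Batf3, Col3a1 and Cd209a were at −0.41, −0.051 and −0.24, short of 1.5-fold. The brightest were Ccr7, Cd3d, Cd79b, Cdh1, Col1a1, Vwf and Hba-a2, with log2 fold changes between −0.43 and 0.43.

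**Figure D4:**
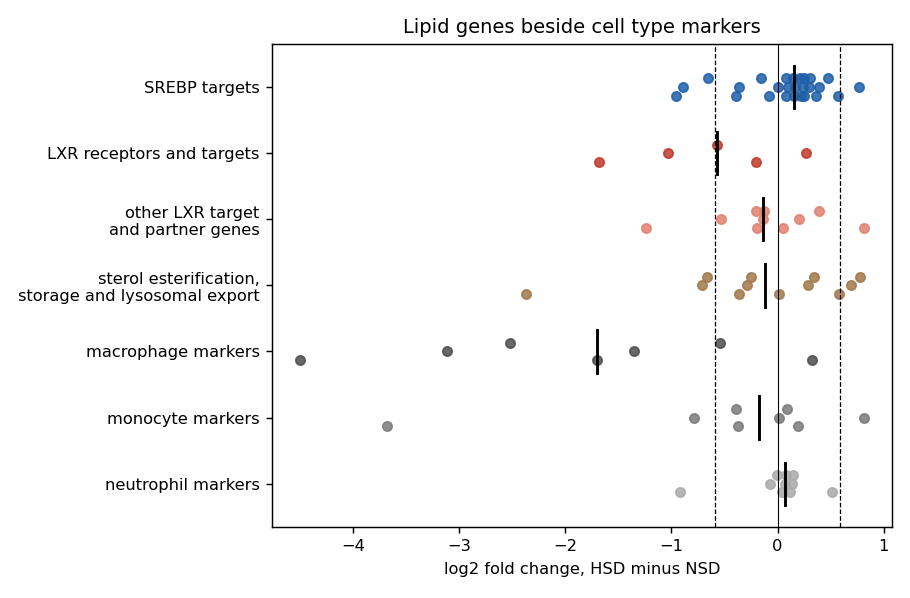
Log2 fold change (HSD minus NSD) of single genes (points) in 7 lists, with the median of each list as a black bar and dashed lines at 1.5-fold; genes dim on 1 array are drawn at their lower bound. Macrophage markers reach from −4.50 to 0.33, neutrophil markers from −0.92 to 0.51, and the SREBP targets lie mostly between the dashed lines.

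Nr1h3, Abcg1 and Mvk were past 1.5-fold under each other way of processing the arrays, unlike Scd1, Elovl6 and Nsdhl. Scd1 and Elovl6 fell short of 1.5-fold only with the normexp correction. The 50 units it adds narrow the fold changes of genes with low signals most, so this split is a weak check. The log2 fold change of Nr1h3 lay between −1.77 and −1.37 and that of Abcg1 between −1.12 and −1.02 over 10 other settings. Mvk lay between −0.93 and −0.62. Nsdhl lay between −0.69 and −0.33, and was short of 1.5-fold with the normexp correction and with the median over its probes. With a 2-fold threshold, only Nr1h3 and Abcg1 remained of the 6 genes.

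**Figure D5:**
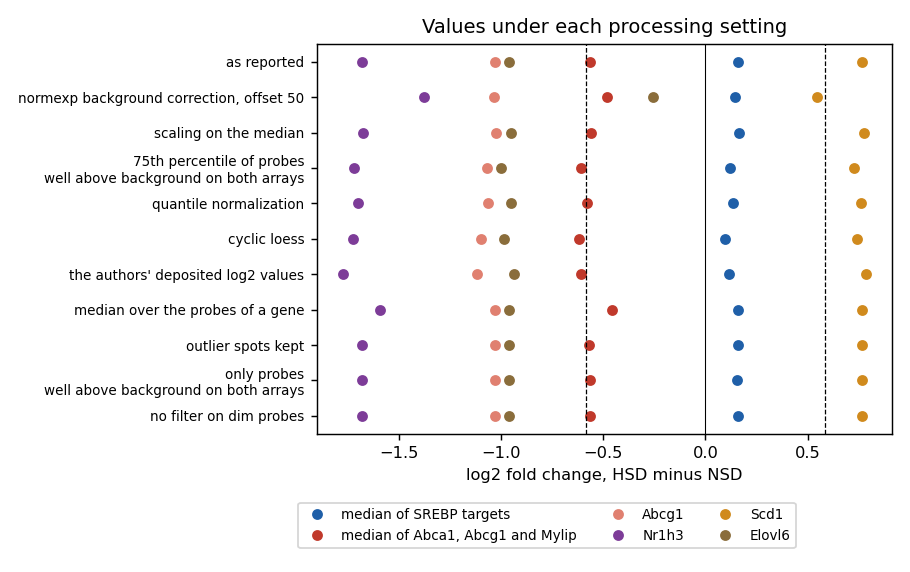
Log2 fold change (HSD minus NSD) of 4 genes and of 2 list medians under the reported setting and 10 others (rows), with dashed lines at 1.5-fold. Points of Nr1h3 lie between −1.77 and −1.37, and the normexp correction moved Elovl6 from −0.96 to −0.26.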

How the data were processed

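The authors deposited the scanner output of 2 Agilent Mouse GE v2 arrays (1 per diet, same slide), with intensity values as processed by Feature Extraction 11.0.1.1 (background subtracted and spatially detrended, arrays not normalized against each other). The authors also deposited normalized log2 values, made with GeneSpring by a method not given in the sources used here. Both columns have a median of 4.61, and their sorted values differ by at most 0.052, as after quantile normalization. Over probes above background their Pearson correlation with the log2 signals was 1.00 on each array, so they are log2 values running the same way. The table has no other column of sample values.

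Control and outlier spots were left out, log2 processed signals were averaged over the spots of a probe, and each array's 75th percentile was subtracted. A probe was well above background when a share of at least 0.5 of its spots was. Against a dim value, only a lower bound was counted, from the lowest signal above background (4.61 units NSD, 4.39 HSD). RefSeq identifiers, matched without versions to GRCm38.p6, named 27223 of 39413 probes (69.1%); probe positions were not used. Noise came from 306 probes with at least 5 spots above background, within 2-fold of a gene's signal. Genes named are the 35 members and, from the other lists, each brightest gene and those past 1.5-fold (2-fold for markers). C1qb, Cd163 and Rxra were singled out after their values were seen. 1 gene that this rule takes in is not reported here. The members, lists, motifs and thresholds were chosen with earlier results of these data known. The fold change step was tested on simulated data. Alternatives were normexp (offset 50, on median spot and background intensities), other scalings, the deposited values, and other probe and filter choices. The number of arrays limits the precision. Python 3.11.15, numpy 2.4.6, pandas 2.3.3, matplotlib 3.10.9, R 4.3.3 and limma 3.58.1 were used.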

Additional observations from a re-analysis of the deposited data

How the results depend on the processing

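No paired analysis was possible because each diet has 1 array. For the same reason no array could be left out. The medians of the lists of the 35 genes moved by less than 0.12 under all 10 settings that give them. This limit is the spot noise SD of a difference between single spots, so it is lenient for a median over several genes. The median of the macrophage markers moved by more under some settings. Of 349 values of single genes under the alternatives, 338 moved by less than 1 SD of spot noise, 11 moved by more, and no gene past 1.5-fold changed sign. Of the 35 genes, between 32 and 35 kept their sign under each setting. Part of this agreement was fixed in advance. The filters on dim probes reuse the reported fold changes of nearly all of the 35 genes. The median over probes changes nothing for a gene with 1 probe. Of the 12 genes with several probes above background on at least 1 array, 8 had probes of 1 sign. Scaling on the median or keeping outlier spots shifts all genes by about the same small amount. With the normexp correction, 0 of the 35 genes were at least 1.5-fold higher and 3 lower, beside 3.85% and 4.07% of all genes. Its added 50 units narrow fold changes, most of all those of genes with low signals. With a 2-fold threshold, 0 were higher and 2 lower, beside 2.62% and 4.17% of all genes. With probes of a gene combined by their median, 2 were higher and 4 lower, beside 9.62% and 9.82% of all genes. Of the calls over all genes, 48.9% were higher, and 38.5% with cyclic loess. The precision of dim genes, such as Fasn, Lss and Dhcr7, is limited by signal over background.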
